A study of Mus musculus with 6 samples.

Results

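Lysozyme and the genes by which mouse macrophages are usually recognised were followed in bone marrow derived macrophages with and without SIRPa. The set holds 7 genes, chosen by name from the 54232 genes of the deposited table: the lysozymes Lyz2 and Lyz1, the adhesion G protein-coupled receptors Adgre1, Adgre4 and Adgre5, and the endosomal proteins Cd68 and Mpeg1. All 7 had a row, and all 7 passed the filter on low values (10 or more normalized counts in 3 or more of the libraries). There were 3 poly(A) RNA libraries from SIRPa knockout (KO) macrophages and 3 from wild-type (WT) macrophages. Both were C57BL/6 by the labels, from mice aged 8 weeks, untreated, and grown out of bone marrow over 7 days with 30% L929 cell-conditioned medium, which supplies colony-stimulating factor 1. The sources used here do not give how the Sirpa allele was made, which cells of the animal lack it or whether replicates were separate mice, so p-values cover the variation among these libraries only, and that variation may be technical.

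Macrophages carry lysozyme in their granules and secrete it, and the enzyme cleaves the peptidoglycan of bacterial walls. Mice have a tandem pair of genes for it: Lyz2 encodes the M form of myeloid cells, and Lyz1 the P form known from Paneth cells of the intestine. Adgre1 encodes F4/80, the classical surface antigen of mouse macrophages; Adgre5 encodes CD97, a receptor of many leukocytes that binds CD55; and Adgre4 encodes EMR4, also called FIRE, of the same receptor family. Cd68 (macrosialin) is a heavily glycosylated protein of late endosomes and lysosomes related to the LAMP proteins. Mpeg1 encodes perforin-2, a pore-forming protein of phagocytic compartments.

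The coding sequences of the lysozyme pair are shown because reads of one gene can be counted for the other where they are identical. Lyz2 (ENSMUSG00000069516) lies on the minus strand of chromosome 10 from 117277331 to 117282321, and Lyz1 (ENSMUSG00000069515) on the same strand from 117287797 to 117292868 (GRCm38, GENCODE M21), with 5475 bases between them. Each has 4 exons and a coding sequence of 447 bases. The first 240 coding bases from the GENCODE transcripts, which hold most of the differences, are given 5′ to 3′, with capitals at the positions that differ between the genes; they span chr10:117291090-117292838 in Lyz1 and chr10:117280702-117282242 in Lyz2, introns included.
Lyz1: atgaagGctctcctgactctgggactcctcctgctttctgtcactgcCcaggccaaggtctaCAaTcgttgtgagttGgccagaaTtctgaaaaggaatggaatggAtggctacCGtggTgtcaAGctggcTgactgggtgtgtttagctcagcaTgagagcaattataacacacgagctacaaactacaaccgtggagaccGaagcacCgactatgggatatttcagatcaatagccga
Lyz2: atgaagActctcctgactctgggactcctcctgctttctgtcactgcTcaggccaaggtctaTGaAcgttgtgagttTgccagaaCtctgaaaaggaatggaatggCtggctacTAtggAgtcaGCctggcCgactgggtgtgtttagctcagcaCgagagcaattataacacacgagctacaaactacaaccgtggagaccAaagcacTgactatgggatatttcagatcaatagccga
The pair differed at 22 of 447 coding positions, an identity of 95.1%. Of these, 17 fell within the first 240 coding bases, and the longest identical stretch ran from base 276 to base 393, 118 bases, counted from the start codon. Over whole transcripts, 16.1% of all 50-base windows of Lyz1 also occurred in Lyz2, against 6.22% of 75-base windows and 2.06% of 100-base windows. The sources used here do not give the read length or how reads with several matches were counted, so the Lyz1 values are uncertain by the reads that the pair shares.

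The stretches upstream of the genes are shown because the 2 genes stood far apart in level. They lie at chr10:117292918-117293118 for Lyz1 and, aligned with it, at chr10:117282322-117282522 for Lyz2 (GRCm38.p6, RefSeq, minus strand, 5′ to 3′), both ahead of the annotated transcript start, with capitals at bases that differ or face a gap.
Lyz1: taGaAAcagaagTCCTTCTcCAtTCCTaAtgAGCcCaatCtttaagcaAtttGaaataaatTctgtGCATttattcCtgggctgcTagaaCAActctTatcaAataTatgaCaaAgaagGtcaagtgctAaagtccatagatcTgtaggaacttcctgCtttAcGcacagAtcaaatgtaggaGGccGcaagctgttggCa
Lyz2: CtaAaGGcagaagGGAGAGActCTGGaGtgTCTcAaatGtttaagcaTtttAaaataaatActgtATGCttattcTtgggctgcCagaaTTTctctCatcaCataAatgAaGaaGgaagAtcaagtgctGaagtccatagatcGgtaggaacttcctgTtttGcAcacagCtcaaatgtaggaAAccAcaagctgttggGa
Of the 201 bases shown, 50 differed in each. The letters AGGAAG, a common core of ETS factor motifs, were searched on both strands and overlap in part with GAGGAA, the PU.1 core. They occurred at 2 places upstream of Lyz2 and at 1 place upstream of Lyz1. Among all 32851 RefSeq promoter windows of 300 bases, 35.4% held these letters. For the PU.1 core there was no match in the 300-base windows of the lysozymes, while it had 2 matches in that of Cd68, 1 in that of Adgre4 and 0 in that of Mpeg1, against 28.3% of all windows with a match. Windows for Adgre1 and Adgre5 were not used here.

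Per length, the set ran from Lyz2, far above the other members, down to Adgre4, close to the filter. Levels were compared as normalized counts per kilobase of merged GENCODE exons. Lyz2 stood at 530388 ± 51781 per kilobase in KO and 613999.6 ± 94366 in WT (SD, n = 3 each). Cd68 followed with 70794 ± 4824 in KO and 70573 ± 7148 in WT, then Mpeg1 with 52834 ± 2134 in KO and 52882 ± 4708 in WT, and Adgre1 with 14836 ± 1327 in KO and 14810.2 ± 1739.8 in WT. Neighbours in this order did not overlap over the 6 libraries: Lyz2 was 6.16-fold to 10.2-fold above Cd68 in the same library, Cd68 1.10-fold to 1.49-fold above Mpeg1, and Mpeg1 3.38-fold to 3.85-fold above Adgre1. Below them, Lyz1 (227 to 1138 per kilobase) and Adgre5 (267 to 358) overlapped, and their order cannot be told from these libraries. Adgre4 was lowest, at 3.94 to 8.28 per kilobase. The order of Cd68 and Mpeg1 depended on the exon lengths used, 1257 bases for Cd68 and 4334 for Mpeg1. By count Mpeg1 was higher, with a 6-library mean of 229088 against 88849 for Cd68.

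**Figure D1:**
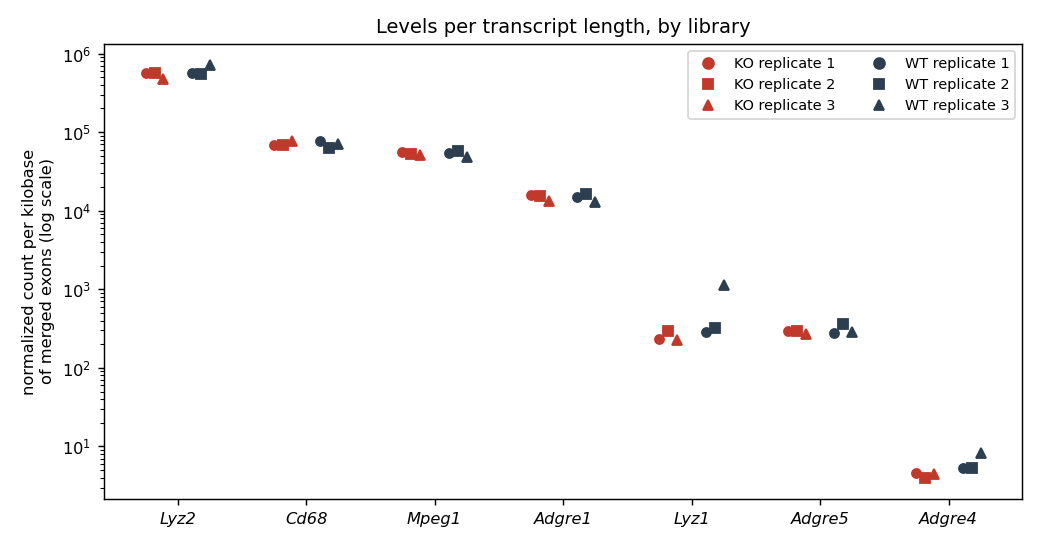
Normalized count per kilobase of merged exons (log scale) for each of the 7 genes, one point per library, KO in red left of WT in dark blue. Lyz2 lies 6.16-fold or more above Cd68 in every library, the ranges of Lyz1 and Adgre5 overlap, and Adgre4 is lowest.

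The markers of the labelled cell type were present. All 6 macrophage markers listed (Csf1r, Cd68, Adgre1, Mertk, Fcgr1 and Itgam) passed the filter, and their summed normalized counts were 257684 to 274067 in KO and 239673 to 277066 in WT. Cd68 and Adgre1 are members of the set themselves, so this check is in part on their own values, and the other 4 are not members. Sirpa itself, the targeted gene, was 2010.4 to 2112 in KO against 94737 to 114095 in WT (a limma log2 fold change of -5.68 with an adjusted p = 6.45e-10), low in each library labelled KO. Reads assigned to genes numbered 28653015 to 31401080 in the KO libraries and 34102444 to 67446846 in the WT libraries, WT replicate 3 being the deepest. Neutrophil markers (8 of 11 past the filter, Ly6g at 0 throughout) summed to 1681 to 2119 in KO and 1958 to 2134 in WT, and monocyte markers (8 of 10) to 14068 to 14765 in KO and 13993 to 16669 in WT. Dendritic cell markers (6 of 9) summed to 6539.9 to 8219 in KO and 7342 to 10020.5 in WT. B cell markers (2 of 6 past the filter) summed to 4963 to 5827 in KO and 6192 to 6718 in WT, so their groups did not overlap; nearly all of it was Ighm, the immunoglobulin mu heavy chain gene, at 4909 to 5757 in KO and 6147 to 6657 in WT (log2 difference -0.25, limma adjusted p = 0.9998). Of the monocyte list, Ccr2, a chemokine receptor gene, also had groups that did not overlap, at 6965 to 8569.6 in KO and 8839.5 to 10406 in WT (log2 difference -0.32, limma adjusted p = 0.9998). These were 1 of 2 tested genes of the B cell list and 1 of 8 of the monocyte list, both named after their values were seen. By log2 fold change, the tested genes of the B cell list were 1 above and 1 below WT. Those of the monocyte list were 4 above and 4 below WT. Over all genes tested, groups did not overlap for 4.66%, and for 2.71% with KO lower. The part of Ighm-expressing or Ccr2-expressing cells in the members' values was not tested. Megakaryocyte markers (3 of 5) summed to 1772 to 3477 in KO and 1288 to 2691 in WT. T and NK cell markers (2 of 7, Ncr1 at 0) and mast cell and basophil markers (2 of 6, Tpsb2 at 0) summed to at most 204 and 115 in any library. No fibroblast or erythroid marker passed the filter, and those lists summed to at most 14.1 and 6.26.

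No member passed the test for a change with the loss of SIRPa. In limma on log2(normalized count + 1), 0 of the 7 genes had an adjusted p under 0.05, where 0.00739% of all 13527 genes tested, namely Sirpa alone, passed, and 0 of 7 had an unadjusted p under 0.05, against 1.52% of all genes. The adjusted p was 0.9998 for each member. On edgeR's quasi-likelihood test and DESeq2, both on the whole reads recovered from the table, 0 of the 7 had an adjusted p under 0.05 likewise. The unadjusted p of Lyz1 was 0.0205 with edgeR and 0.0652 with DESeq2, and those of the other members stayed above 0.05. The median log2 fold change of the 7 was -0.10, beside -0.006 over all genes tested, with 4 members below and 3 above WT. The 3 above were close to 0, at 0.0053 for Adgre1, 0.0073 for Cd68 and 0.0018 for Mpeg1. Each of these turned negative in some fits that left out a single library. The 95% interval of the fold stayed inside 2-fold either way for 5 of the 7, all but Lyz1 and Adgre4, and inside 1.5-fold for Adgre1, Adgre5, Cd68 and Mpeg1. In bulk RNA, fewer cells of a type and less RNA per cell cannot be told apart.

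**Figure D2:**
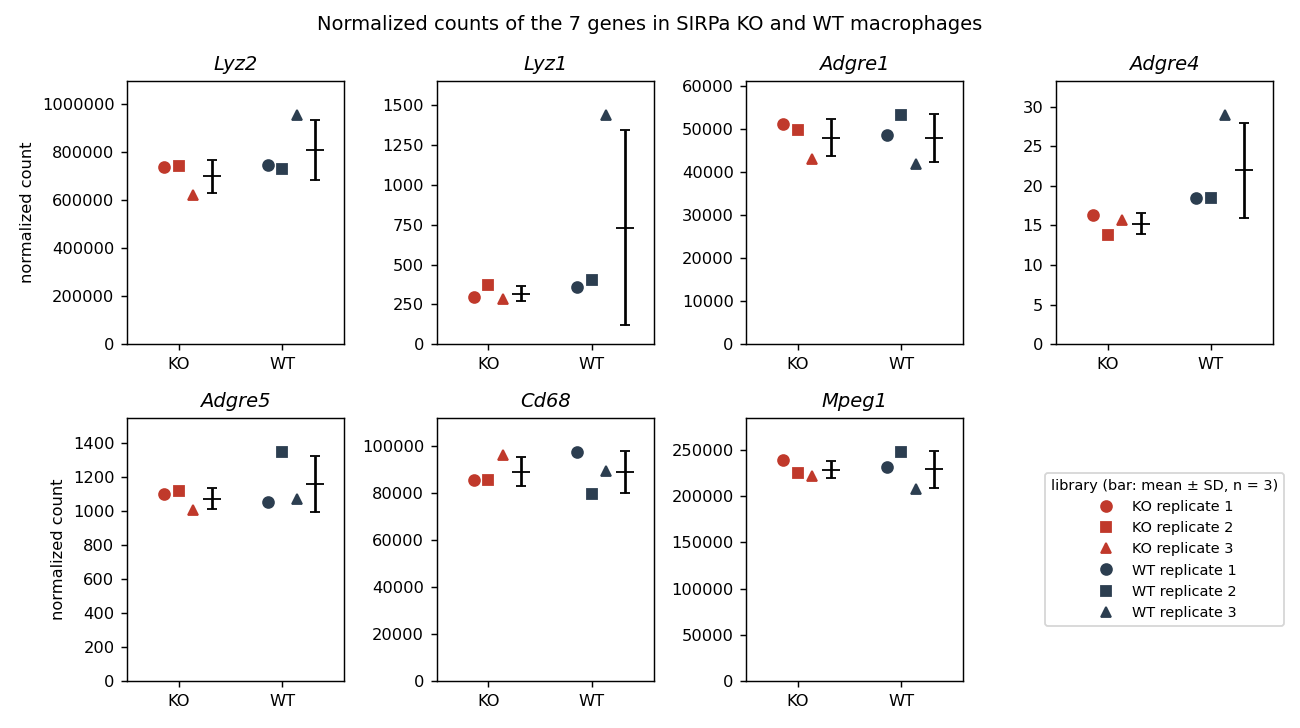
Normalized counts of each gene (vertical axis from 0, one scale per gene) in 3 KO libraries (red, left) and 3 WT libraries (dark blue, right), with bars for the mean ± SD. Groups overlap for each gene except Adgre4, and WT replicate 3 (triangle) is the highest library for Lyz2, Lyz1 and Adgre4.

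Lyz2 was the most counted gene of all in 5 of 6 libraries and second in KO replicate 3. KO replicates 1, 2 and 3 had 736017, 738635 and 619319 normalized counts, while WT replicates 1, 2 and 3 had 745629, 727406 and 951035. KO replicates 1 and 2 thus fell beside WT replicates 1 and 2, while KO replicate 3 was the lowest and WT replicate 3 the highest library. The means were 697991 ± 68144 in KO and 808023 ± 124186 in WT (SD, n = 3 each), a log2 fold change of -0.21 (SE 0.18, 95% interval -0.61 to 0.20, unadjusted p = 0.285 by limma). Without WT replicate 3 the log2 fold change was -0.082. As a share of all assigned reads, Lyz2 alone made up 2.05%, 2.05% and 1.73% of KO replicates 1, 2 and 3 and 2.01%, 2.01% and 2.63% of WT replicates 1, 2 and 3 (means 1.95% in KO and 2.22% in WT, exact permutation test, two-sided, p = 0.60). The 7 genes together took 2.97 ± 0.195% of the reads in KO and 3.23 ± 0.307% in WT (SD, n = 3 each, p = 0.50 by the same exact test), and without WT replicate 3 this difference was -0.0781 percentage points in place of -0.255. With 3 libraries against 3, this test cannot go below 0.10.

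Reads assigned to Lyz1, the P form, gave a low level, and 1 WT library stood well above the other 5. How many of these reads came from Lyz2 was not tested. KO replicates 1, 2 and 3 had normalized counts of 294, 370.0 and 287, and WT replicates 1, 2 and 3 had 357, 403 and 1438. WT replicate 3 stood 3.57-fold above the highest of the other libraries, and WT replicate 1 lay within the KO range. The mean was 317 ± 46.1 in KO and 733 ± 611 in WT (SD, n = 3 each), with a log2 fold change of -0.91 (SE 0.42, 95% interval -1.84 to 0.02, unadjusted p = 0.0543 by limma). Without WT replicate 3 it was -0.27 (unadjusted p = 0.142, adjusted p = 0.9999 by limma). The spread of Lyz1 within groups, an SD of 0.80 on the log2 scale, exceeded that of 99.3% of the 10339 tested genes with a mean of at least 100, whose median SD was 0.16.

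The balance of the pair showed the same library apart. For every 1000 Lyz2 reads, KO replicates 1, 2 and 3 had 0.399, 0.501 and 0.463 reads of Lyz1, and WT replicates 1, 2 and 3 had 0.479, 0.554 and 1.51. These ratios within a library do not depend on its scaling, and 5 of the 6 lay between 0.399 and 0.554. Lyz1 made up 0.0454 ± 0.00512% of the summed counts of both genes in KO and 0.0848 ± 0.0575% in WT (SD, n = 3 each, exact permutation test, two-sided, p = 0.20). The difference of -0.0393 percentage points became -0.00622 without WT replicate 3. Per length, Lyz2 exceeded Lyz1 by 2403-fold, 1916-fold and 2072-fold in KO and by 2002-fold, 1732-fold and 635-fold in WT replicates. WT replicate 3 had 2687 Lyz1 reads, where the others had 235 to 415, and was also the deepest library and the highest for Lyz2. Its summed markers of neutrophils (1958), monocytes (15987) and dendritic cells (7342) were not the highest of the WT libraries. Those of B cells (6718), nearly all Ighm, were the highest of all 6 libraries. Those of macrophages (239673), T and NK cells (109.7) and megakaryocytes (1288) were the lowest of all 6. The part of depth, of other cells and of reads shared by the pair in the higher Lyz1 value was not tested.

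**Figure D3:**
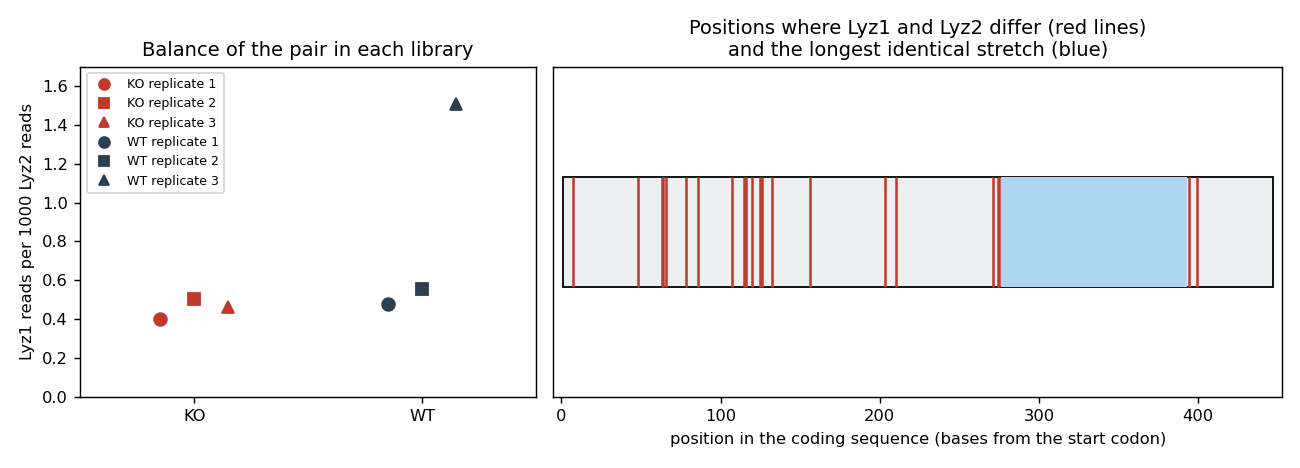
Left, Lyz1 reads per 1000 Lyz2 reads in each library, KO left of WT, where 5 libraries lie between 0.399 and 0.554 and WT replicate 3 at 1.51. Right, the 447-base coding sequence with red lines at the 22 positions where the genes differ and the identical stretch from base 276 to base 393 in blue.

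Adgre1, the gene of F4/80, had nearly the same mean in KO and WT macrophages. It lies on chromosome 17 from 57358691 to 57483527 on the plus strand, in 22 merged exon blocks. KO replicates 1, 2 and 3 had 51219, 49751 and 43150.3 normalized counts of it, and the WT replicates in that order 48582, 53249 and 42035. The groups overlapped throughout, with replicate 3 the lowest of each. The mean was 48040.2 ± 4298 in KO and 47955 ± 5633 in WT (SD, n = 3 each), the log2 fold change 0.01 (SE 0.13, unadjusted p = 0.968 by limma), and the interval of the fold 0.822 to 1.23. Adgre1 ranked between 54 and 73 among all genes by count.

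Adgre5, the gene of CD97, was far lower per length than Adgre1. It lies on chromosome 8 from 83723251 to 83741326 on the minus strand, and 895 of its 3757 exon bases overlap exons of Ddx39, an RNA helicase gene on the opposite strand. The KO replicates 1, 2 and 3 gave normalized counts of 1098, 1114 and 1003, the WT replicates 1053, 1346 and 1069. WT replicate 2 was the highest library, 1.21-fold above the next, and the remaining ones lay close together. This gave 1072 ± 60.4 in KO and 1156 ± 165 in WT (SD, n = 3 each), with a log2 fold change of -0.10 (95% interval -0.38 to 0.18, unadjusted p = 0.447 by limma). Ddx39 stood at 1404 ± 266 in KO and 1448 ± 158 in WT, and since the strand setting of the counting was not stated, reads from the shared bases may have gone to either gene. Of the summed counts of the 3 receptor genes, Adgre5 took 2.19 ± 0.0858% in KO and 2.35 ± 0.203% in WT (exact permutation test, two-sided, p = 0.30).

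Adgre4 was barely detected, and it was the only member whose groups did not overlap. It lies on chromosome 17 from 55749984 to 55853662, 1.51 megabases from Adgre1. KO replicates 1, 2 and 3 had 16.3, 13.7 and 15.7 normalized counts, from 13, 12 and 13 reads. WT replicates 1, 2 and 3 had 18.5, 18.5 and 28.9, from 17, 19 and 54 reads. Each KO library was below each WT library, but WT replicates 1 and 2 were close to the KO range and WT replicate 3 was 1.56-fold above them. Groups failed to overlap for 4.66% of all genes tested and, as here with KO lower, for 2.71%; 0 of the 7 stood apart with KO higher, against 1.96% of all genes. The mean was 15.2 ± 1.32 in KO and 21.9 ± 6.03 in WT (SD, n = 3 each), with a log2 fold change of -0.47 (95% interval -1.18 to 0.24, unadjusted p = 0.171 by limma), and without WT replicate 3 it was -0.27. As a share of the library the exact test gave p = 0.10, the smallest that 3 against 3 allow, for 4.25e-05% in KO and 6.03e-05% in WT. At 12 to 54 reads, shares were imprecise: that of KO replicate 2, 3.82e-05%, had a 95% Wilson interval of 2.19e-05% to 6.68e-05%, and such intervals cover counting error only. Adgre4 made up 0.0312 ± 0.00423% of the 3 receptor genes in KO and 0.0460 ± 0.0183% in WT (exact permutation test, two-sided, p = 0.20).

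Cd68, the gene of macrosialin, lies on the minus strand of chromosome 11 from 69664213 to 69666153. It had 85506, 85469 and 95989.8 normalized counts in KO replicates 1, 2 and 3, against 97302, 79377 and 89449.7 for the WT replicates. WT replicates held both the highest and the lowest value, with all KO libraries between them. The mean was 88988 ± 6064 in KO and 88709.7 ± 8985 in WT (SD, n = 3 each), and the interval of the fold ran from 0.824 to 1.23 (log2 fold change 0.01, SE 0.13, unadjusted p = 0.956 by limma). Its share of the library was 0.248 ± 0.0177% in KO and 0.243 ± 0.0221% in WT (exact permutation test, two-sided, p = 0.90).

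Mpeg1, the gene of perforin-2, varied least of the 7 between libraries. It lies on chromosome 19, plus strand, from 12460779 to 12465283, and ranked between 7 and 10 among all genes by count. KO replicates 1, 2 and 3 reached normalized counts of 239507, 225294 and 222151, and WT replicates 1, 2 and 3 had 232206, 247921 and 207448. All KO values fell between the lowest and the highest WT value. Means of 228984 ± 9248 in KO and 229192 ± 20404 in WT (SD, n = 3 each) gave a log2 fold change of 0.00 (SE 0.14, 95% interval -0.31 to 0.31, unadjusted p = 0.99 by limma). Its SD within groups, 0.10 on the log2 scale, exceeded that of 18.1% of tested genes with a mean of at least 100, against 30.4% for Cd68, 45.8% for Adgre1, 45.0% for Adgre5 and 59.9% for Lyz2.

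**Figure D4:**
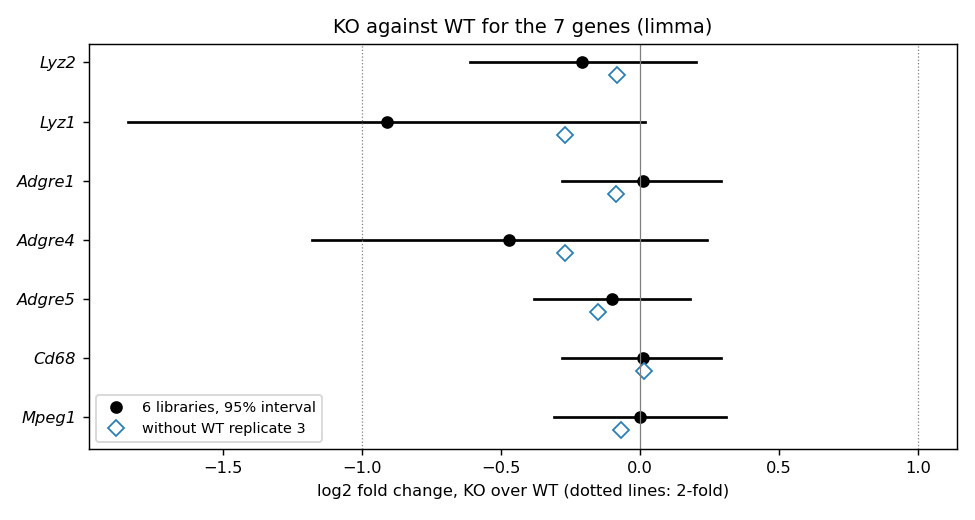
Log2 fold change of KO over WT with its 95% interval (black, 6 libraries) and the value without WT replicate 3 (open diamonds), with dotted lines at 2-fold. The intervals of all 7 genes include 0, and Lyz1 moves from -0.91 to -0.27 when WT replicate 3 is left out.

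Between libraries the members followed different courses. Likeness was measured as the root mean square difference between the log2 deviations of 2 genes from their own 6-library means, and it describes these libraries without a test. Within the set the closest pair was Adgre1 and Mpeg1 (0.0607), followed by Adgre1 and Adgre5 (0.0983) and by Adgre5 and Mpeg1 (0.101). Adgre1 and Mpeg1 were both highest in WT replicate 2 (deviations 0.16 and 0.12) and lowest in WT replicate 3 (-0.19 and -0.14). Lyz2 deviated the other way in that library (0.35), as did Lyz1 (1.73) and Adgre4 (0.65), whereas Cd68 was near its mean there (0.01) and low in WT replicate 2 (-0.16). The 2 lysozymes were 0.635 apart.

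**Figure D5:**
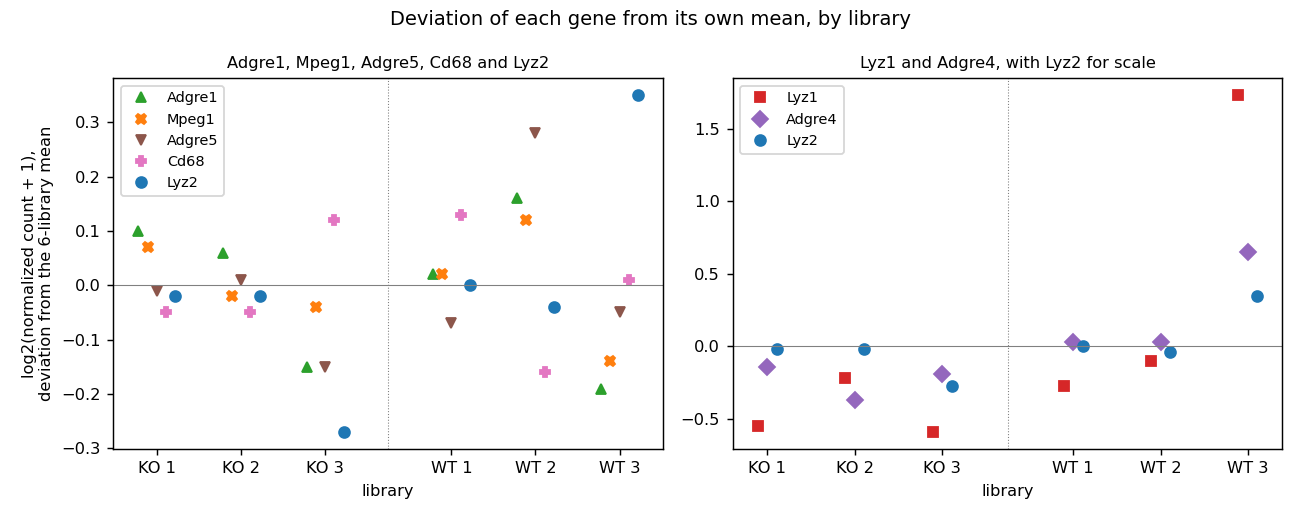
Deviation of log2(normalized count + 1) from each gene's 6-library mean, KO libraries left and WT libraries right of the dotted line. Adgre1 and Mpeg1 lie near each other in each library, while WT replicate 3 is high for Lyz2 (0.35), Adgre4 (0.65) and Lyz1 (1.73).

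The genes most like each member were sought among 9817 tested genes (9818 for Adgre4) with a mean of at least 100, leaving out the gene itself and symbols of predicted genes, clones and pseudogenes. Lyz2 was closest to Eef1a1, a translation elongation factor (0.0209), and Tspan13, a tetraspanin (0.0321); Eef1a1 likewise deviated by -0.24 in KO replicate 3 and by 0.37 in WT replicate 3. The nearest to Lyz1 were Cd300lg (0.359) and Ube2c, a ubiquitin-conjugating enzyme of mitosis (0.384), which is distant by the measure, with deviations of 1.10 and 1.09 in WT replicate 3 against 1.73 for Lyz1. Adgre1 was closest to Snx18, a sorting nexin (0.0197), and the motor gene Myo1c (0.0214). Mpeg1 was closest to Socs6 (0.0200) and Nfe2l1 (0.0222), Cd68 to Basp1 (0.0201) and Ube2r2 (0.0217), Adgre5 to Stat5b (0.0323) and Arhgef3 (0.0331), and Adgre4 to Rgs3 (0.106) and Cd24a (0.115).

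Relatives of the members by family or function did not pass the test either. Of 10 genes of the lysozyme superfamily, 7 were at 0 in all 6 libraries and 3 were tested, with 0 higher and 0 lower in KO; beside the pair this was Lyzl4, a lysozyme-like gene known from sperm, at 381 ± 96.8 in KO and 367 ± 78.2 in WT (SD, n = 3 each), a log2 difference of 0.04. Of 30 adhesion G protein-coupled receptor genes, 11 were tested, 0 rose and 0 fell, with a median log2 fold change of 0.08. The next most counted after Adgre1 was Adgrl2, a latrophilin, at 1652 ± 162 in KO macrophages and 1573 ± 279.9 in WT, a log2 difference of 0.08. Among 5 genes whose products CD97 is known to bind, 2 integrin genes passed the filter and neither passed the test. Itgb1 was 32578 ± 2719.9 in KO and 30419 ± 1462 in WT (log2 difference 0.10, SE 0.11). Itga5 was 5202 ± 789 in KO and 5136 ± 907 in WT (log2 difference 0.02, SE 0.15). Cd55 was at 7.18 ± 1.03 in KO and 7.23 ± 1.73 in WT, below the filter, and Thy1 and Cd55b were at or near 0.

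Lysosome and pore-forming relatives were likewise without a call. In the LAMP family 3 of 5 genes were tested and 0 passed; Lamp1 was 73875 ± 593 in KO and 76808 ± 3289 in WT, and Lamp2 33792 ± 3908 in KO and 33961 ± 621 in WT (SD, n = 3 each). Mpeg1 was the only one of 12 genes with a membrane attack complex and perforin domain to pass the filter, and 9 of the 12 were at 0 in all libraries. Of 14 antimicrobial effectors, 9 were tested, 0 rose and 0 fell (median log2 fold change -0.02). Cybb, the catalytic subunit of the phagocyte oxidase, was 37713 ± 4042 in KO and 38198 ± 4638 in WT. Slc11a1, a metal transporter of phagosomes, was 8818 ± 1588 in KO and 9390.4 ± 1214 in WT, and Ngp, a neutrophil granule gene, 96.2 ± 18.9 in KO and 118 ± 32.0 in WT.

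Of 28 other macrophage identity genes, 26 were tested and 0 rose or fell, with 5 above and 21 below WT and a median log2 fold change of -0.09, beside -0.006 over all genes. The most counted were Ctss, a lysosomal protease, at 210697 ± 10843 in KO macrophages and 236329 ± 13233 in WT, a log2 difference of -0.17, Csf1r, the receptor for colony-stimulating factor 1, at 101653 ± 13166 in KO and 100154 ± 13761 in WT (0.02), and Lgals3, which encodes galectin-3, at 97002 ± 12355 in KO and 115564 ± 10576 in WT (-0.26; SD, n = 3 each). The groups did not overlap for 2 of the 26, against 4.66% of all genes. These were Cd14, at 12259 ± 1891 in KO and 15175 ± 330.0 in WT, and Mrc1, the mannose receptor, at 28075 ± 2901 in KO and 20586 ± 5495 in WT, both named after their values were seen, with an adjusted p of 0.9998 each by limma.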

How the data were processed

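Poly(A) RNA of 3 SIRPa KO and 3 WT macrophage libraries was analysed from 1 deposited table, grouped by sample titles. The submitters' processing notes name STAR 2.5.1b, CASAVA 1.4, DESeq2 1.22.2, featureCounts 1.6.0 and the GRCm38 build, per the labels; the design text names TopHat as the aligner and a stranded kit. Which aligner made the table, the annotation release and the strand setting were not given in the sources used here.

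The values deposited for each library are a signal, read counts scaled by the authors with a size factor for each library. All positive values were whole multiples of 1 step per library within 0.001 reads (100.0% of them), so whole reads were recovered. The authors' deposited table also gives a log2 fold change, a Wald score and, raw and adjusted, a p-value, none of which is used here.

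The main test was limma 3.58.1 (R 4.3.3, intensity trend on, replicates unpaired) on log2(value + 1), a scale that understates the change of low genes. Genes with 10 or more in 3 or more libraries entered. Two-sided p-values were adjusted over 13527 genes by the Benjamini-Hochberg method, with 0.05 as the threshold. Shares were taken of the summed normalized counts of each library and compared by exact permutation. On the recovered reads, edgeR 4.0.16 and DESeq2 1.42.0 were alternatives, beside other pseudocounts, filters, scalings, denominators, no trend, array weights, a replicate block and leaving out each library. The fit was tested on simulated data. Libraries of a group differed by more than sampling noise in each case (lowest ratio of chi-square to its degrees of freedom 13.1). Depth sets counting error only: Adgre4 aside, the relatively widest 95% Wilson interval of a member's share was that of Lyz1 in KO replicate 1 (8.20e-04%, interval 7.22e-04% to 9.32e-04%).

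Members and gene lists were chosen with earlier results of these data known. Named genes were the members, Sirpa, the 3 most counted tested genes of each related list and the 2 genes most like each member. Ddx39, Cd55, Cd55b and Thy1 are named for their overlap or binding, and Cd14, Mrc1, Ccr2 and Ighm after their values were seen. Of the IDs, 54165 were in GENCODE M21, and upstream sequences of 5 members were in the RefSeq GRCm38.p6 table.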

Additional observations from a re-analysis of the deposited data

How the results depend on the processing

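Of 256 values recomputed under alternatives, 236 kept their direction and their side of the threshold. Counts of called genes were taken as kept if equal or within 1.5-fold. The shares and balances could not cross the threshold, because their exact tests cannot go below 0.10, so for them only the direction could differ. No member passed the test in any of the 17 other fits across genes (smallest adjusted p of a member 0.0777, for Cd68 with array weights in limma). Array weights called 1685 genes higher and 1813 lower, against 0 and 1 without weights, and gave Cd68 a log2 fold change of -0.16 and Adgre5 one of 0.039; limma's estimate of the weights stopped before it converged, and the cause of the calls was not tested. DESeq2 gave -0.0013 for Mpeg1. For Lyz1 the log2 fold change was -0.36 with array weights and -1.21 with edgeR. Its unadjusted p was under 0.05 with edgeR (0.0205). By limma it was so with the replicate block (0.0185), without the filter (0.0273) and with median scaling (0.0497). Leaving out WT replicate 1 (0.0104) or WT replicate 2 (0.0271) in limma did likewise, and the other alternatives did not. Among the other members only Adgre4 without the intensity trend (0.0452) and Cd68 with array weights (0.0248) were under 0.05, both by limma. Leaving out 1 library at a time, log2 fold changes ran from -0.086 to 0.084 for Adgre1, from -0.16 to 0.013 for Adgre5, from -0.070 to 0.077 for Cd68 and from -0.068 to 0.060 for Mpeg1. They stayed negative for Lyz2 (-0.28 to -0.082), Lyz1 (-1.27 to -0.27) and Adgre4 (-0.58 to -0.27). Differences in share of the library, KO minus WT in percentage points, then ran from -0.00505 to 0.0102 for Adgre1, from -3.49e-04 to 8.80e-05 for Adgre5, from -0.00696 to 0.0148 for Cd68 and from -0.0167 to 0.0380 for Mpeg1. A minimum of 50 left Adgre4 out of the fit.

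Whether the replicate numbers pair the libraries was not settled by the correlation of deviations (0.013, 0.313 and 0.133 for numbers 1, 2 and 3). KO replicate 2 correlated most with WT replicate 2, and KO replicate 3 with WT replicate 1 (0.15). KO replicate 1 was near 0 with every WT replicate (0.013, -0.012 and 0.002 for WT replicates 1, 2 and 3). With the replicate block limma called 0 genes higher and 1 lower, as without it, and the log2 fold change of Lyz1 was -0.91 (adjusted p = 0.9996). Genes with an unadjusted p under 0.05 by limma numbered 327 with the block and 205 without it. Depth limits Adgre4, with 12 to 54 reads per library.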
